A study of Homo sapiens with 3 samples.

Results

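Integrins, cadherins and claudins are the receptors by which cells hold on to matrix and to each other, and their RNA was followed in H446 cells, a small cell lung cancer line of human origin, exposed for 48 h to BAS (3-bromoascochlorin), the bromine-bearing form of a compound made by fungi. All integrin alpha genes named by a number or a single letter, integrin beta genes, numbered cadherins and claudins, and EPCAM, OCLN, TJP1 and VIM were taken by their symbols. This gave 63 of the 16793 gene symbols: 17 integrin alpha genes, 8 integrin beta genes, 19 cadherins, 15 claudins and the 4 single genes. The study's title names antitumor effects and the MAPK pathway, and the comparisons here ask how adhesion genes stood at each dose. A further 13 symbols that follow the same pattern in the human annotation were not analysed here. The 3 groups were the vehicle control, BAS at 5 µM and BAS at 10 µM, with 1 library each. All were the same line in the same serum-containing medium, and since no group was repeated, the differences below are descriptions of 3 libraries and carry no p-value. The values are FPKM, read numbers scaled to transcript length and sequencing depth, which can be set side by side between genes because they are per length.

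Integrins are heterodimers of an alpha and a beta subunit. The alpha subunit largely sets which ligand is bound, and beta1 pairs with most of the alpha subunits. Cadherins bind their like on the next cell through calcium-dependent domains and are tied to actin by catenins. Claudins and occludin form the strands of the tight junction, and ZO-1, the product of TJP1, joins them to the cytoskeleton. Small cell lung cancer is a neuroendocrine tumour, and its cultures range from floating aggregates to variant lines that attach. Loss of E-cadherin and EPCAM beside high vimentin is the usual description of a mesenchymal state.

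The neuroendocrine identity of the line was checked against markers. Of 12 such genes 10 were analysed, and each was at or above 1 FPKM in every library. They summed to 435.24 FPKM in the vehicle library, 513.04 at 5 µM BAS and 584.12 at 10 µM BAS. UCHL1 gave 82.21, 131.19 and 176.51 FPKM of these sums. SYP and NEUROD1 were below vehicle at both doses, and the other markers analysed were above it. The 7 genes of the fibroblast list summed to 751.82 FPKM in the vehicle library, 934.36 at 5 µM BAS and 924.93 at 10 µM BAS. Nearly all of that sum was the collagen genes COL1A1, COL1A2 and COL3A1, and the matrix genes DCN and LUM were at most 0.31 FPKM in any library. COL1A1 and COL1A2 also stand in the list of integrin ligands. The part of the fibroblast list in the values of VIM, the cadherins, the integrins and their ligands was not tested. The library totals ran between 487923 and 507342 FPKM. The read depth behind them is unknown, so no counting error is given. Of the 63 genes, 26 averaged 1 FPKM or more across the libraries and are called measured. Another 17 were below that mean but reached 0.1 FPKM in some library and are called low, and 20 stayed under 0.1 FPKM in every library and are called silent. No gene was listed at 0 in all 3 libraries (0 of 63), and 11 were listed at 0 in at least 1.

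The integrin repertoire was narrow, with 9 of 17 alpha genes and 2 of 8 beta genes measured. ITGB1, the shared partner of most alpha subunits, was at 141.38 FPKM in the vehicle library, 140.25 at 5 µM BAS and 147 at 10 µM BAS. It made up 91.4% of the summed integrin beta FPKM in the vehicle library, 87.9% at 5 µM and 86.2% at 10 µM, and 15.0% of its 50-base sequences also occur in another annotated gene. The summed alpha FPKM was lower than the summed beta FPKM in each library, at 104.05 against 154.64 with vehicle, 99.23 against 159.63 at 5 µM and 116.95 against 170.51 at 10 µM.

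Among the RGD-binding alpha subunits, which recognise the arginine-glycine-aspartate sequence of fibronectin and vitronectin, ITGA5 stood out. ITGA5, the alpha chain of the classical fibronectin receptor, was at 3.73 FPKM in the vehicle library, 6.41 at 5 µM BAS and 8.32 at 10 µM BAS. The level was higher at each dose step, with a plain ratio to vehicle of 1.72 at 5 µM and 2.23 at 10 µM. Its difference in log2(FPKM + 1) was 0.65 at 5 µM and 0.98 at 10 µM, at percentiles 97.8 and 98.6 among the 11512 genes that averaged 1 FPKM or more. ITGAV, which pairs with several beta chains, was at 25.25 FPKM in the vehicle library, 25.63 at 5 µM BAS and 31.91 at 10 µM BAS. ITGA8 was silent, at 0.03 to 0.05 FPKM.

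ITGB5, the beta chain that pairs with the ITGAV product in a vitronectin receptor, was the other integrin gene far from vehicle. It was at 12.55 FPKM in the vehicle library, 19 at 5 µM BAS and 22.88 at 10 µM BAS, so that both BAS libraries were above the vehicle library. The plain ratio to vehicle was 1.51 at 5 µM and 1.82 at 10 µM, and the log2(FPKM + 1) difference 0.56 and 0.82, at percentiles 96.6 and 97.6 of all genes. ITGB5 made up 8.12% of the summed beta FPKM in the vehicle library, 11.9% at 5 µM and 13.4% at 10 µM. The remaining beta genes were low or silent. ITGB8 was at 0.42 FPKM in the vehicle library, 0.17 at 5 µM BAS and 0.23 at 10 µM BAS. ITGB4, the hemidesmosome subunit, was at 0.18, 0.08 and 0.22 FPKM in the same order, and ITGB2, ITGB3, ITGB6 and ITGB7 stayed under 0.1 FPKM.

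The most abundant alpha gene was ITGA4, whose product pairs with beta1 to bind VCAM-1 and fibronectin. It was at 38.24 FPKM in the vehicle library, 30.36 at 5 µM BAS and 33.88 at 10 µM BAS, and thus lower with BAS at both doses. Its share of the summed alpha FPKM was 36.8% in the vehicle library, 30.6% at 5 µM and 29% at 10 µM, while that of ITGA5 was 3.58%, 6.46% and 7.11%. The related ITGA9 was at 2.80 FPKM in the vehicle library, 2.13 at 5 µM BAS and 2.03 at 10 µM BAS. ITGA9 shares 5.69% of its 50-base sequences with an overlapping antisense gene.

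Of the laminin-binding subunits, ITGA3 was at 16.53 FPKM in the vehicle library, 19 at 5 µM BAS and 20.85 at 10 µM BAS. ITGA7, known as the laminin receptor of muscle, was at 10.41 FPKM in the vehicle library, 9.20 at 5 µM BAS and 12.15 at 10 µM BAS. ITGA7 was therefore below vehicle at 5 µM and above it at 10 µM. ITGA6, the laminin receptor of many epithelia, was low, at 0.05 to 0.13 FPKM.

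The collagen-binding subunits lay on either side of vehicle. ITGA10, a collagen receptor of cartilage cells, was at 3.04 FPKM in the vehicle library, 3.80 at 5 µM BAS and 4.34 at 10 µM BAS. ITGA2, a collagen receptor of platelets and epithelia, was at 2.13 FPKM in the vehicle library, 1.30 at 5 µM BAS and 1.70 at 10 µM BAS. ITGA1 and ITGA11 were silent, at 0.01 to 0.09 FPKM. Among the alpha genes of leukocytes, ITGAE was measured, at 1.52 FPKM in the vehicle library, 1.13 at 5 µM BAS and 1.12 at 10 µM BAS. ITGAE has 7.59% of its exonic bases in common with other genes, the kinase gene HASPIN among them. ITGAL was low, and ITGAM, ITGAX and ITGAD were silent. The leukocyte marker list summed to 4.86 FPKM in the vehicle library, 7.41 at 5 µM BAS and 9.73 at 10 µM BAS over the 5 of 8 markers analysed, of which CD68 gave 2.85, 6.05 and 7.34 FPKM. None of these was listed at 0 (0 of 5 in each library), and their part in the values of the leukocyte integrins was not tested.

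**Figure D1:**
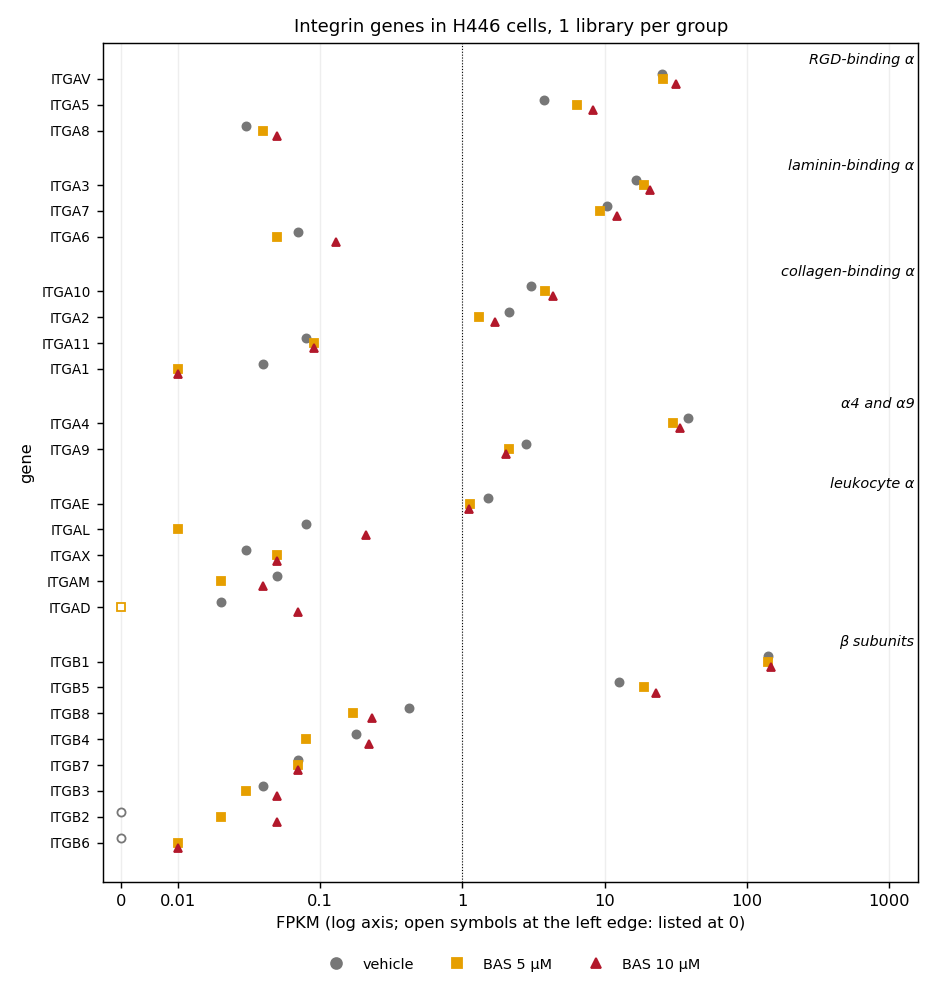
FPKM of the 25 integrin genes on a log axis, grouped by ligand class, with 1 symbol per library (vehicle, BAS 5 µM, BAS 10 µM) and a dotted line at 1 FPKM; open symbols mark values listed at 0. ITGB1 sits above 140 FPKM in every library, and ITGA5 and ITGB5 step upward with dose.

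For the cadherins, the most abundant genes were ones known from other tissues, and the 2 that lay furthest from vehicle were lower with BAS. CDH5, the VE-cadherin of endothelial junctions, was at 57.56 FPKM in the vehicle library, 55.75 at 5 µM BAS and 51.99 at 10 µM BAS. It made up 42.9%, 44.6% and 43.8% of the summed cadherin FPKM in those libraries. The 4 endothelial markers analysed of 6 summed to 1.61 FPKM in the vehicle library, 1.65 at 5 µM BAS and 1.68 at 10 µM BAS. Among them PECAM1 was at 0.10 FPKM in the vehicle library, 0.16 at 5 µM BAS and 0.11 at 10 µM BAS, and ERG was listed at 0 with vehicle and at 0.01 FPKM at both doses. TEK was the 1 endothelial marker at or above 1 FPKM.

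CDH15, the M-cadherin of muscle precursors, was at 28.48 FPKM in the vehicle library, 30.72 at 5 µM BAS and 26.61 at 10 µM BAS. CDH2, the N-cadherin of neural and mesenchymal cells, was at 8.39 FPKM in the vehicle library, 7.91 at 5 µM BAS and 7.97 at 10 µM BAS. Both classical cadherins thus differed little between libraries. CDH1, the E-cadherin of epithelia, was low, at 0.61 FPKM in the vehicle library, 0.28 at 5 µM BAS and 0.27 at 10 µM BAS. CDH3 and CDH4, the P- and R-cadherins, were silent. CDH2 exceeded CDH1 in FPKM in each library.

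The type II cadherins held both of the lowest members. CDH7, described in the migrating neural crest of the chick, was at 9.82 FPKM in the vehicle library, 5.21 at 5 µM BAS and 4.81 at 10 µM BAS. Both BAS libraries were below vehicle, at plain ratios of 0.53 for 5 µM and 0.49 for 10 µM, and the log2(FPKM + 1) differences of -0.80 and -0.90 lay at percentiles 0.495 and 0.912 of all genes. CDH12, a type II cadherin of the brain, was at 3.09 FPKM in the vehicle library, 1.15 at 5 µM BAS and 1.21 at 10 µM BAS. Its plain ratios to vehicle were 0.37 and 0.39, and its differences of -0.93 and -0.89 lay at percentiles 0.269 and 0.947. Of its 50-base sequences 3.09% also occur in other annotated genes, pseudogenes among them. For CDH7 and CDH12 the 2 BAS libraries were close to each other, with differences of -0.10 and 0.04 between 10 µM and 5 µM.

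Other type II cadherins lay closer to vehicle. CDH24 was at 15.90 FPKM in the vehicle library, 14.84 at 5 µM BAS and 17.08 at 10 µM BAS. CDH11, the cadherin of osteoblasts and mesenchyme, was at 2.60 FPKM in the vehicle library, 2.85 at 5 µM BAS and 3.49 at 10 µM BAS. CDH22, a brain cadherin, was at 2.04 FPKM in the vehicle library, 1.44 at 5 µM BAS and 1.52 at 10 µM BAS. Of the low genes, CDH18 was at 0.87 FPKM in the vehicle library, 0.44 at 5 µM BAS and 0.33 at 10 µM BAS, below vehicle at both doses. CDH10 was at 0.46, 0.64 and 0.26 FPKM and CDH9 at 0.18, 0.35 and 0.26 FPKM in the same order. CDH6, CDH19 and CDH20 were silent. Outside these classes, CDH23, which forms the tip links of inner ear hair cells, was at 3.97 FPKM in the vehicle library, 3.31 at 5 µM BAS and 2.69 at 10 µM BAS, and 18.9% of its exonic bases overlap another gene. CDH26 was silent.

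Several of these genes are neighbours. In the RefSeq annotation CDH18 lies directly beside CDH12, and CDH10 lies beyond 1 other coding gene and next to CDH9. CDH12 and CDH18 were both below vehicle at both doses, while CDH10 was above it at 5 µM and CDH9 above it at both. CDH7 lies beside the silent CDH19, and CDH5 beside CDH11. CDH1 and CDH3 are adjacent, and both were low or silent.

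Claudin RNA was scarce, with 3 of 15 genes measured and a summed level of 9.41 FPKM in the vehicle library, 10.11 at 5 µM BAS and 13.89 at 10 µM BAS. CLDN4, a claudin of tight epithelial barriers, was at 0.58 FPKM in the vehicle library, 1.47 at 5 µM BAS and 2.33 at 10 µM BAS. Each dose was above the library before it, and CLDN4 met the limit of mean level through the BAS libraries. The plain ratio to vehicle was 2.53 at 5 µM and 4.02 at 10 µM, and the log2(FPKM + 1) difference 0.65 and 1.08, at percentiles 97.8 and 99.0. The share of CLDN4 in the summed claudin FPKM was 6.16% in the vehicle library, 14.5% at 5 µM and 16.8% at 10 µM.

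CLDN15, a claudin that forms cation pores in the gut, was at 2.46 FPKM in the vehicle library, 2.78 at 5 µM BAS and 4.10 at 10 µM BAS. CLDN12, the most abundant claudin, was at 5.09 FPKM in the vehicle library, 5.06 at 5 µM BAS and 6.44 at 10 µM BAS, with 16.3% of its exonic bases in common with other genes. All 3 measured claudins were above vehicle at 10 µM. CLDN7, a claudin bound by EPCAM in epithelia, was at 0.32 FPKM in the vehicle library and appeared as 0 in both BAS libraries. CLDN3, the neighbour of CLDN4, was at 0.04 FPKM in the vehicle library and likewise listed at 0 with BAS. CLDN1, CLDN5, CLDN9, CLDN11, CLDN16, CLDN18 and CLDN19 were low, none above 0.27 FPKM in any library. CLDN2, CLDN20 and CLDN23 were silent.

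EPCAM, the epithelial cell adhesion molecule, was low, at 0.24 FPKM in the vehicle library and 0.03 FPKM at both doses. OCLN, the tight junction strand protein occludin, was at 4.61 FPKM in the vehicle library, 4.53 at 5 µM BAS and 6.52 at 10 µM BAS. OCLN shares 9.38% of its 50-base sequences with other genes. TJP1 (ZO-1) was at 7.33 FPKM in the vehicle library, 6.05 at 5 µM BAS and 7.31 at 10 µM BAS. VIM, the intermediate filament of mesenchymal cells, was the most abundant of the 63 genes, at 680.84 FPKM in the vehicle library, 643.05 at 5 µM BAS and 605.21 at 10 µM BAS. VIM was thus lower with each dose, by at most 0.17 on the log2(FPKM + 1) scale, and 38.2% of its 50-base sequences also lie in antisense genes. CDH1, EPCAM and CLDN7 were all low and each below vehicle in both BAS libraries. Of the other low members, CDH18, CLDN11, CLDN18, CLDN19 and ITGB8 were also below vehicle at both doses. CLDN1 and CDH9 were above it at both, and the rest kept to neither side. Over all 16793 symbols, 604 were listed at 0 in the vehicle library, 701 at 5 µM BAS and 952 at 10 µM BAS. The epithelial marker list, in which keratins predominate, summed to 13.87 FPKM in the vehicle library, 7.72 at 5 µM BAS and 9.76 at 10 µM BAS, with KRT5 listed at 0 at 10 µM. Its members did not move one way. KRT8, KRT18, KRT19 and MUC1 were below vehicle at both doses, while KRT14 was at 0.04 FPKM in the vehicle library, 2.01 at 5 µM BAS and 4.87 at 10 µM BAS. The part of that list in these low values was not tested.

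**Figure D2:**
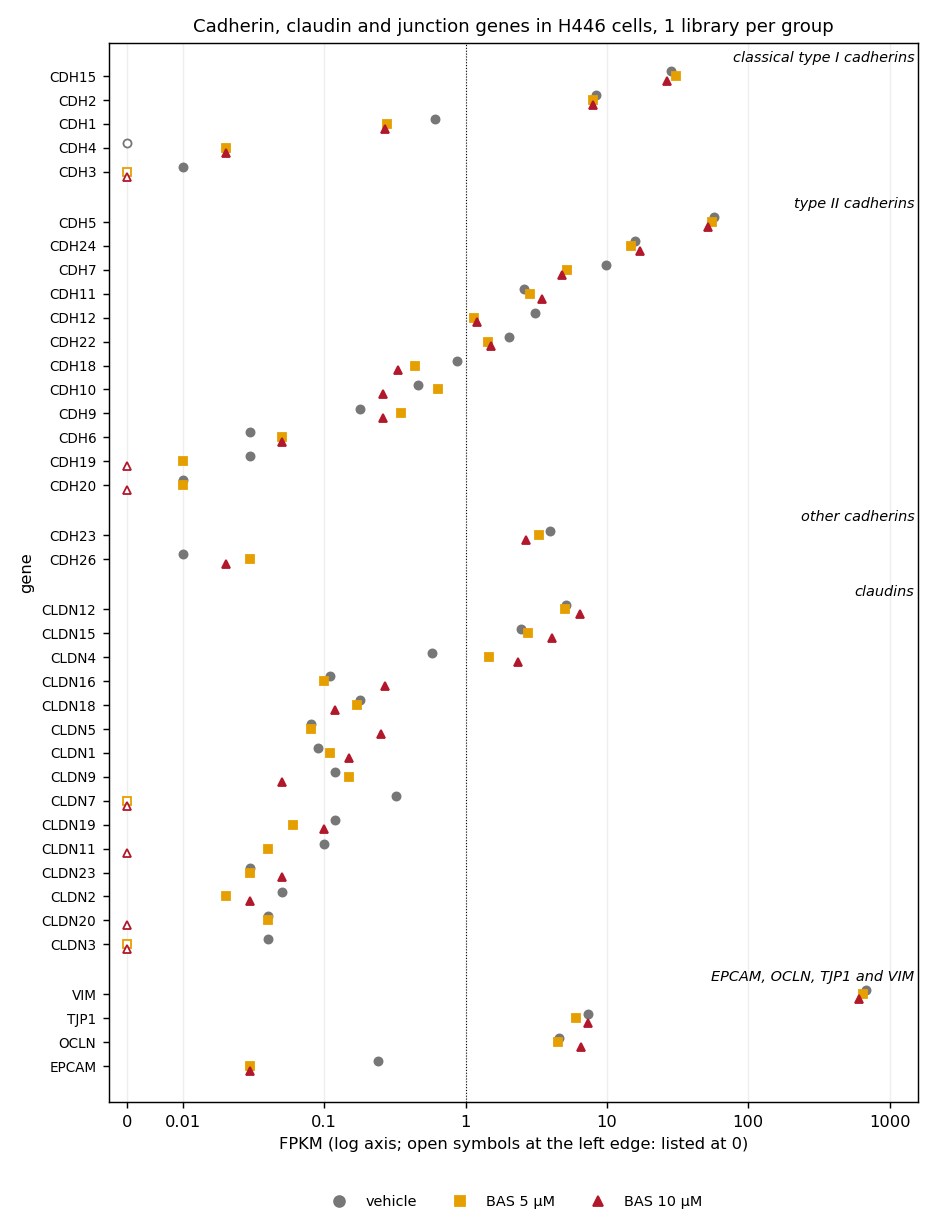
FPKM of the 19 cadherins, 15 claudins, EPCAM, OCLN, TJP1 and VIM on a log axis, with 1 symbol per library (vehicle, BAS 5 µM, BAS 10 µM) and a dotted line at 1 FPKM; open symbols mark values listed at 0. VIM lies furthest to the right, CDH1 and EPCAM stay under 1 FPKM, CDH7 and CDH12 step down with BAS and CLDN4 steps up.

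The measured genes were then set against all genes. A gene is called where the difference in log2(FPKM + 1) reached 1 in size, which is 2-fold. At 10 µM, CLDN4 was called higher and no measured gene was called lower (1 and 0 of 26), where 1.31% of all 11512 genes were called higher and 0.643% lower. At 5 µM, 0 of 26 were called in either direction, where 0.539% of all genes were called higher and 0.217% lower. Between 10 µM and 5 µM, 0 of 26 were called, where 0.0434% of all genes were called in each direction. ITGA5 at 0.98 was just short of the limit at 10 µM, and with quantile normalization so was CLDN4, at 0.91. The pseudocount of 1 holds back genes of a few FPKM, and with 0.1 in its place ITGA5 and CLDN4 were called higher and CDH7 and CDH12 lower at 10 µM, where 2.39% and 1.26% of all genes were. At 5 µM that pseudocount called CLDN4 higher and CDH12 lower, where 1.24% and 0.46% of all genes were.

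With the limit lowered to 1.5-fold, ITGA5, ITGB5 and CLDN4 were higher and CDH7 and CDH12 lower at 10 µM. These are 3 and 2 of 26 genes, where 6.05% of all genes were higher and 3.47% lower, shares that would give 1.57 and 0.901 of 26 genes. At 5 µM ITGA5 and CLDN4 were higher and CDH7 and CDH12 lower, where the shares of all genes were 3.01% and 1.62% and would give 0.781 and 0.42 of 26 genes. Between the doses 0 of 26 passed this limit either way, where 0.443% of all genes were higher and 0.408% lower. As shares of the 26 genes, the counts were 11.5% higher and 7.69% lower at 10 µM, and 7.69% each way at 5 µM. Counts this small cannot tell the share of the members from that of all genes.

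By family, the 11 measured integrins had a median log2(FPKM + 1) difference of -0.01 at 5 µM and 0.20 at 10 µM, with 7 above and 4 below vehicle at 10 µM. The 9 measured cadherins had medians of -0.09 and -0.14, with 2 above and 7 below vehicle at either dose. The 3 measured claudins had medians of 0.13 and 0.56, while over all 15 claudins with no filter the medians were -0.01 and -0.03. Over all genes the medians were 0.02 and 0.05, and the central 95% of differences ran between -0.66 and 0.80 at 10 µM. Of all 11512 genes, 6123 were above and 5363 below vehicle at 5 µM, and 6505 above and 4988 below at 10 µM. Both doses share the vehicle library, so a value that is odd there moves both differences together. Between 10 µM and 5 µM, 19 of the 26 measured genes were above 0, where 6749 of all 11512 genes were. The median of the measured genes was 0.15 against 0.04 over all genes, and OCLN had the highest value, at 0.44.

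**Figure D3:**
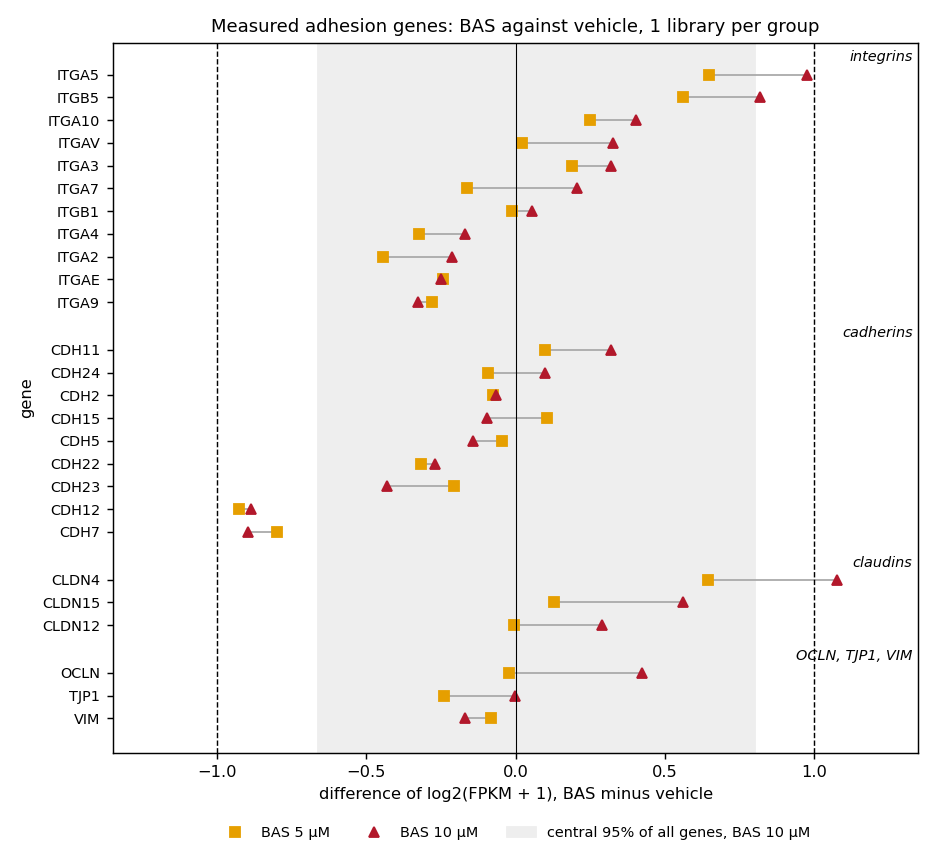
Difference of log2(FPKM + 1) between BAS and vehicle for the 26 measured genes, with 5 µM as squares, 10 µM as triangles, the 2-fold limits dashed and the central 95% of all genes at 10 µM shaded. CLDN4, ITGA5 and ITGB5 lie to the right of the shading at 10 µM and CDH7 and CDH12 to its left.

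**Figure D4:**
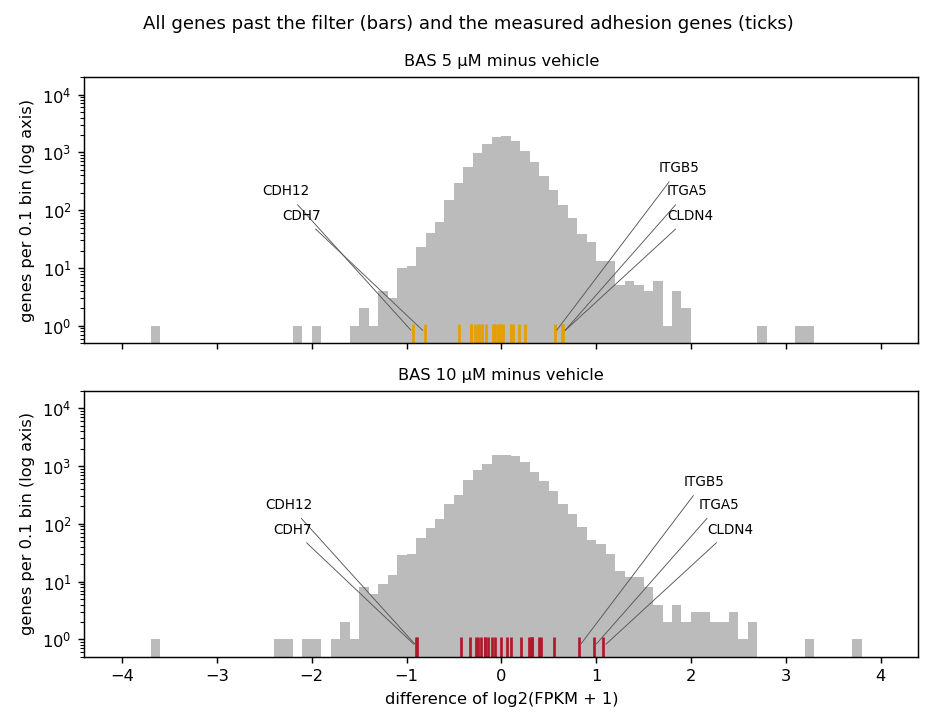
Number of genes per bin of log2(FPKM + 1) difference on a log axis, for all 11512 genes at 5 µM (upper panel) and 10 µM (lower panel) against vehicle, with the 26 measured adhesion genes as ticks. The 5 named genes lie on the shoulders of the distribution and not at its far ends.

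The promoters of these 5 genes are shown because they are the members furthest from vehicle. They were taken by symbol from a set of RefSeq promoters on GRCh38.p14. That set held entries for 41 of the 63 genes. The promoters are matched to no coordinate of the authors' hg19 files. Each is written 5′ to 3′ on the gene's strand, as the 250 bases before the annotated start and the 10 after it, for the most upstream start where there are several. Capitals mark TGANTCA, a pattern that reads the same on both strands. It covers TGACTCA and TGAGTCA, the element of AP-1, the FOS and JUN dimer. It also takes in TGAATCA and TGATTCA, so a match need not be that element.
CLDN4 (chr7:73830746-73831005, plus strand): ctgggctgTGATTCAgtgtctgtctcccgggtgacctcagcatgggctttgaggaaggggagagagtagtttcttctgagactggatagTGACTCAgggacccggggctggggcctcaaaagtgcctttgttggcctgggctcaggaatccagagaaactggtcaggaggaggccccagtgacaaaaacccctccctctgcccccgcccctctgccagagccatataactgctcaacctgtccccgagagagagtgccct
ITGA5 (chr12:54419257-54419516, minus strand): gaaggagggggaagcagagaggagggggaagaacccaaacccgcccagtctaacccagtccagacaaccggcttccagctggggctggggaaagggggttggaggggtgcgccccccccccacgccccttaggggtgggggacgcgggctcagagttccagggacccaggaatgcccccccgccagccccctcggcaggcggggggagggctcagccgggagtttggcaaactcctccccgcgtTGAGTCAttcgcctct
ITGB5 (chr3:124901409-124901668, minus strand): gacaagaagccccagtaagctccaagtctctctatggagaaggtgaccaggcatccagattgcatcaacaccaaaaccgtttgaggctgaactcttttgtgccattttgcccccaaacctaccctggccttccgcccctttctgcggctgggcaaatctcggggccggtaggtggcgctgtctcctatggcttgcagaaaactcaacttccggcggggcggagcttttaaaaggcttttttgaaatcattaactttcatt
CDH7 (chr18:65750002-65750261, plus strand): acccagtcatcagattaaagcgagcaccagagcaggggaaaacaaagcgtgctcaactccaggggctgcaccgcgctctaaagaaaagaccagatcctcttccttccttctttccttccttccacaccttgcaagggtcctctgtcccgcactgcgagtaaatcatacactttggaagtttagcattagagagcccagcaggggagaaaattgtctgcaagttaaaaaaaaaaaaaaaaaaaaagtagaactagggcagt
CDH12 (chr5:22853335-22853594, minus strand): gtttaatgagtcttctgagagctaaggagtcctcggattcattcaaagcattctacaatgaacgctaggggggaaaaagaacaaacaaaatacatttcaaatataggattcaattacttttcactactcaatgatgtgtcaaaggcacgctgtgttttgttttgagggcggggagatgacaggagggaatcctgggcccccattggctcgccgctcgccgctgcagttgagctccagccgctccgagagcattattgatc
The whole windows of 300 bases were searched. CLDN4 held the letters as TGATTCA at -242 and as TGACTCA at -161 from the start. ITGA5 held them once, as TGAGTCA at -6, running onto the start itself. ITGB5 had no match in its 3 windows, and CDH7 none in its 2. CDH12 had 1 match in its 3 windows, at -229 from the most downstream start. Of 35116 windows in all, 7.71% held the letters, and of the 13516 windows of genes that averaged 1 FPKM or more, 4.82% did. The 32 windows of measured members came from 18 of the 26 measured genes. Of these windows 5 held the letters, those of CDH2 and CLDN15 among them. Genes on either side of vehicle thus held the letters.

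The genes that work with these receptors were taken from 7 lists drawn up with earlier results of these data known. Their counts are read against the shares of all genes called, 1.31% higher and 0.643% lower at 10 µM and 0.539% and 0.217% at 5 µM, and their medians against 0.05 and 0.02 over all genes. At such shares, lists of this size would hold few or no called genes, so a count of 0 says little about a list. Of 17 measured integrin adaptors, the proteins that join integrin tails to actin, 0 were called at either dose, and at 10 µM 13 were above and 4 below vehicle, with a median of 0.15. ZYX, the adaptor zyxin of mature adhesions, was at 70 FPKM in the vehicle library, 87.5 at 5 µM BAS and 110 at 10 µM BAS. TNS1, the tensin that binds integrin beta tails, was at 3.25 FPKM in the vehicle library, 2.01 at 5 µM BAS and 2.19 at 10 µM BAS. Of the 14 measured integrin ligands, 2 were called higher at 10 µM (TNC and CYR61) and 1 at 5 µM (CYR61), with 0 lower. At 1.5-fold, 7 were higher at 10 µM and 3 at 5 µM, with 0 lower. Of all genes, 6.05% and 3.01% were higher at that limit and 3.47% and 1.62% lower. The median of the ligands was 0.37 at 5 µM, where it was 0.02 over all genes, and 0.52 at 10 µM, where it was 0.05. TNC was at 2.85 FPKM in the vehicle library, 5.8 at 5 µM BAS and 8.23 at 10 µM BAS. CYR61 was at 66.56, 168.9 and 162.78 FPKM in the same order, and thus lower at 10 µM than at 5 µM. CTGF, among these ligands, was at 0.94, 1.93 and 2.44 FPKM with vehicle, 5 µM and 10 µM BAS. It met the limit of mean level through the BAS libraries. NPNT, the matrix protein nephronectin, a ligand of the integrin that the silent ITGA8 encodes, was at 6.44 FPKM in the vehicle library, 8.92 at 5 µM BAS and 11.5 at 10 µM BAS.

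Of 12 measured catenin and adherens junction genes, 0 were called at either dose, and at 10 µM 4 were above and 8 below vehicle, with a median of -0.14. CTNND2, the delta-catenin of neurons, was at 35.27 FPKM in the vehicle library, 30.14 at 5 µM BAS and 24.35 at 10 µM BAS. ARVCF, a relative of p120-catenin, was at 2.79 FPKM in the vehicle library, 3.78 at 5 µM BAS and 4.38 at 10 µM BAS. Of 13 measured tight junction partners 0 were called, with a median of -0.07 at 5 µM and -0.06 at 10 µM. MAGI1, a scaffold of these junctions, was at 5.04 FPKM in the vehicle library, 3.35 at 5 µM BAS and 2.91 at 10 µM BAS.

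Of the 11 desmosome genes analysed, 2 were measured, both were above vehicle at either dose, and 1 was called higher at 10 µM and 0 at 5 µM. The called gene was PKP1, which encodes plakophilin 1 of the desmosome plaque, at 0.29 FPKM in the vehicle library, 1.44 at 5 µM BAS and 2.05 at 10 µM BAS. PKP1 met the limit of mean level through the BAS libraries. PERP, the other measured gene, was at 13.74 FPKM in the vehicle library, 16.43 at 5 µM BAS and 15.28 at 10 µM BAS. The desmosomal cadherins DSG1, DSG2, DSG3, DSC1, DSC2 and DSC3 were at most 0.17 FPKM in any library. DSG1, DSG2 and DSC1 were below vehicle at both doses, and DSG3, DSC2 and DSC3 were not. Of the other genes not measured, DSP and PKP3 were below vehicle at both doses. PKP2 was at 0.96 FPKM in the vehicle library, 0.93 at 5 µM BAS and 0.99 at 10 µM BAS.

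Of 13 measured other adhesion receptors, 0 were called at either dose, and at 10 µM 8 were above and 5 below vehicle, with a median of 0.27. At 1.5-fold, CD44, MCAM and SDC2 were higher and NCAM2 lower at 10 µM, where 6.05% and 3.47% of all genes were. CD44, the hyaluronan receptor, was at 8.55 FPKM in the vehicle library, 10.82 at 5 µM BAS and 15.02 at 10 µM BAS. NCAM2, a neural cell adhesion molecule, was at 6.16 FPKM in the vehicle library, 4.45 at 5 µM BAS and 3.76 at 10 µM BAS.

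Among the regulators of the switch between epithelial and mesenchymal states, 7 of 15 analysed were measured, and 1 was called higher and 0 lower at each dose. At either dose 5 were above and 2 below vehicle, with a median of 0.18 at 5 µM and 0.33 at 10 µM. The called gene was ESRP1, a splicing regulator that favours epithelial transcript forms, at 0.23 FPKM in the vehicle library, 1.64 at 5 µM BAS and 2.49 at 10 µM BAS, and it met the limit of mean level through the BAS libraries. ZEB1, a repressor of E-cadherin, was at 17.62 FPKM in the vehicle library, 14.68 at 5 µM BAS and 13.45 at 10 µM BAS. TCF4, a helix-loop-helix factor that can also repress E-cadherin, was at 12.03 FPKM in the vehicle library, 8.47 at 5 µM BAS and 8.09 at 10 µM BAS. GRHL1, a Grainyhead-like factor of epithelia, was at 0.87 FPKM in the vehicle library, 1.20 at 5 µM BAS and 1.61 at 10 µM BAS. GRHL1 too met the limit of mean level through the BAS libraries. The other three measured regulators, named after their values were seen, promote the mesenchymal state and were above vehicle at both doses. SNAI1 was at 25.8 FPKM in the vehicle library, 29.6 at 5 µM BAS and 33.04 at 10 µM BAS. TWIST1 was at 9.42 FPKM in the vehicle library, 10.68 at 5 µM BAS and 12.1 at 10 µM BAS. ZEB2 was at 4.32 FPKM in the vehicle library, 5.01 at 5 µM BAS and 5.24 at 10 µM BAS. Of the measured regulators, ESRP1 and GRHL1 of the epithelial state and SNAI1, TWIST1 and ZEB2 thus stood above vehicle, and ZEB1 and TCF4 below. The epithelial regulators GRHL2, GRHL3, ESRP2, OVOL1 and OVOL2 were not measured, at most 0.23 FPKM in any library. GRHL2, GRHL3 and ESRP2 were below vehicle at both doses, and OVOL1 and OVOL2 were not. Of the other regulators not measured, SNAI2 and TWIST2 were above vehicle at both doses. SNAI3 was above it at 5 µM and below it at 10 µM. Over all symbols, 604 were listed at 0 in the vehicle library, 701 at 5 µM BAS and 952 at 10 µM BAS. CDH1 and EPCAM remained below 1 FPKM in every library beside these values. RNA levels do not measure the amount of receptor at the cell surface.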

How the data were processed

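Per the labels' protocols, H446 RNA was taken after 48 h of vehicle, BAS at 5 µM or BAS at 10 µM and read in single-end mode over 50 bases, with 1 library per group. The authors deposited FPKM per gene symbol, per the file headers. Per the submitters' processing notes, the tools were Cufflinks, Cuffdiff, Bowtie2, BWA and Trim Galore and the build hg19. The sources used here do not state versions, roles or strand handling. The value columns of the BAS libraries carry the codes ASB85 and ASB810, per the file headers, so the doses rest on the sample labels. Symbols in several rows were summed.

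Differences of log2(FPKM + 1) were computed for the 11512 genes averaging 1 FPKM or more, and called at 2-fold. With no replicates there is no test. Every member could be named, and up to 4 genes of each partner list, those with the largest difference at 10 µM. SNAI1, TWIST1, ZEB2 and the desmosome genes and state regulators that were not measured were named beside that rule. The members and lists were chosen with earlier results of these data known. Shared 50-base sequences and exon overlaps came from GENCODE 29, matched by symbol. Other pseudocounts, filters, scalings and fold limits were tried. The steps were tested on simulated data. Python 3.11.15, numpy 2.4.6, pandas 2.3.3 and matplotlib 3.10.9 were used.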

Additional observations from a re-analysis of the deposited data

How the results depend on the processing

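With 1 library per group and unknown depth, no replicate error or counting error bounds any value, and low genes are recorded to 2 decimals. No paired analysis was possible because each group has 1 library. At 10 µM against vehicle 1 member was called, and the count was 4 with a pseudocount of 0.1 (2 higher and 2 lower), 3 with a pseudocount of 0.5, 5 with a fold limit of 1.5, and 0 with a mean of at least 5 FPKM or with quantile normalization, where CLDN4 had 0.91. At 5 µM against vehicle 0 were called, and the count was 2 with a pseudocount of 0.1, 1 with a pseudocount of 0.5 and 4 with a fold limit of 1.5. Between the doses it was 0 under every alternative tried. The median of the integrin genes at 10 µM was 0.03 with no filter and 0.32 with a mean of at least 5 FPKM, against 0.20. The median of the claudin genes at 10 µM was 0.71 with a pseudocount of 0.1, -0.03 with no filter over 15 genes and 0.29 with a mean of at least 5 FPKM, which leaves 1 gene. At 5 µM it was -0.01 both with no filter and with a mean of at least 5 FPKM, against 0.13. The remaining medians of the 3 families moved by less than 0.1. For single members, 335 of 344 values kept their side of the 2-fold limit, 8 passed it only under a smaller pseudocount (CLDN4, ITGA5, CDH7 and CDH12) and 1 lost it. ITGAV at 5 µM, at 0.02, lay at -0.03 to 0.00 under the scalings. The cause of these shifts was not tested, apart from the genes that a filter adds or removes.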
